A study of Mus musculus with 6 samples.

Results

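The v-ATPase is the rotary proton pump that acidifies lysosomes, and its V1 sector is the part that lies in the cytosol and hydrolyses ATP. The 10 genes described here encode V1 subunits. They were chosen by name, with earlier results of these data known, and all 10 were found among the 55401 genes of the deposited table. RNA was sequenced from bone marrow-derived macrophages grown with M-CSF, the macrophage growth factor, in 3 libraries with the genotype label Lamtor5 knockdown and 3 labelled WT. The Lamtor5 protein has the older name HBXIP and belongs to Ragulator, the complex that holds the Rag GTPases on the lysosome surface. The series' own text marks the mutant animals with LysM, the myeloid lysozyme promoter commonly used to drive Cre, so the targeting is in myeloid cells. That text sets a delta sign before LysM, the usual notation for a deletion in such cells, whereas the genotype label says knockdown, and the label's word is used here. The labels give no strain, age, sex or pooling of animals, and nothing says whether the 3 libraries of a group are separate animals or cultures. The p-values below therefore rest on library-to-library spread alone, part or all of which may be technical.

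In the pump, the A and B subunits alternate in a ring, with the ATP hydrolysed at A. The D and F subunits form the central shaft that turns inside the ring, and the E and G subunits form stalks at its edge that hold the ring still. The C and H subunits join those stalks to V0, the sector in the membrane that carries the protons. V1 can leave V0 and bind it again, which switches the pump off and on. V1 and Ragulator also touch each other, and this contact takes part in amino acid signalling to mTORC1. Several subunits have isoforms encoded by separate genes. B1 is known from acid-secreting cells such as those of the kidney, B2 is found in most cells, and C2 is known from kidney, lung and placenta.

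Lamtor5 itself was at 25.5, 27.1 and 24.8 FPKM (deposited fragments per kilobase of exon, scaled to sequencing depth) in knockdown replicates 1 to 3 and at 55.9, 54.5 and 56.2 FPKM in WT replicates 1 to 3, so the knockdown held 46.5% of the WT level. Each library had 26.0 to 28.0 M read pairs (M, 1e6) and 75.8 to 83.2 M estimated counts. At Lyz2, the gene whose promoter is LysM, every knockdown library lay below WT, which had 22454 to 29379 FPKM. The part of this Lyz2 difference in the results below was not tested. Knockdown replicate 3 stood apart, with 73.6 FPKM against 11356 and 10650 FPKM in the other knockdown libraries. Counts of called V1 genes, other v-ATPase genes and markers are therefore also given without that library. All 8 genes of a macrophage marker list were detected in every library. Their summed FPKM was 1751 to 1915 for knockdown libraries and 1789 to 2001 for WT libraries. Cd68 was the largest part of this sum, with a mean FPKM of 1415 for the knockdown against 946 for WT. The similar sums therefore do not show that the other markers of the list kept their level. Of the 8, 5 passed the test described below as lower in the knockdown (Adgre1, Csf1r, Itgam, Fcgr1 and Cd14) and Cd68 as higher. Of all genes tested, 11.3% passed in either direction. The part of these markers in the results below was not tested.

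The V1 genes were higher in the Lamtor5 knockdown. Of the 10 genes, 8 had enough counts to be tested, and 7 of these rose, by 33.2% to 69.5%: Atp6v1c1, Atp6v1g1, Atp6v1d, Atp6v1e1, Atp6v1h, Atp6v1f and Atp6v1a. The eighth, Atp6v1b2, was 16.6% higher and did not pass. The other two, Atp6v1b1 and Atp6v1c2, were at or next to 0 in both groups. None fell: all 8 tested genes had a positive log2 fold change, so 0 were lower also at an unadjusted p under 0.05. A gene passed when its Benjamini-Hochberg adjusted p in edgeR's quasi-likelihood test, taken over all 18164 genes tested, was under 0.05. By this rule 4.87% of all genes tested were higher in the knockdown, and 11.3% passed in either direction. In all 8 tested V1 genes every knockdown library lay above every WT library, which held for 16.3% of all genes tested. The median log2 fold change was 0.44 for the 8 genes and 0.02 for all genes tested.

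These calls depended on single libraries, WT replicate 2 above all. Without it, edgeR called 0 of the 8 genes and 0 of 18979 genes in all. At an unadjusted p under 0.05 were 7 of the 8, beside 4065 of the 18979 genes. The log2 fold change of Atp6v1c1, for example, went from 0.76 to 0.73, and the adjusted p of the 7 genes rose to between 0.0616 and 0.110. Without the same library, in fits added after seeing the data, DESeq2 called 7 of the 8 (background 6.42%) and limma called 0. In that limma fit 7 of the 8 were at an unadjusted p under 0.05, as were 2969 of 11487 genes in all. Without knockdown replicate 3, edgeR called 4 of the 8, which were Atp6v1c1, Atp6v1d, Atp6v1g1 and Atp6v1h, at a background of 1.98% of genes called higher. Without knockdown replicate 1 it called 3 (background 1.12%), and without WT replicate 3 it called 4 (background 1.39%). It called the same 7 as with all libraries without WT replicate 1 (background 4.96%) and without knockdown replicate 2 (background 2.71%). The direction was upward for each of the 8 genes in all 16 other settings tried. These settings reuse libraries whose groups did not overlap in these genes, so an upward direction was nearly fixed in advance. In bulk RNA, fewer or more cells of a type and less or more RNA per cell cannot be told apart.

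**Figure D1:**
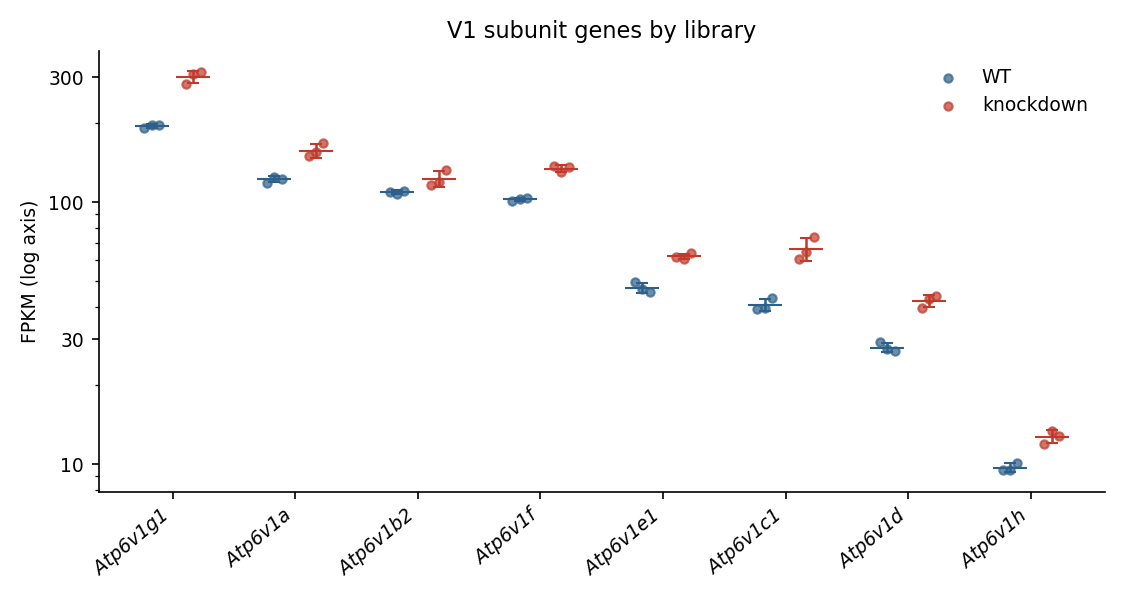
FPKM of the 8 tested V1 genes in each library on a log axis, with WT in blue and the knockdown in red; points are single libraries, horizontal marks are means and bars are SD (n = 3). In every gene the 3 knockdown points lie above the 3 WT points, with the smallest gap in Atp6v1b2.

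Promoter sequence is shown for the genes that rose and have an entry among the RefSeq promoter windows (GRCm38.p6, 250 bases before to 50 bases after the RefSeq start site). Of the 10 V1 genes, 6 had a window, and 4 of these 6 genes rose. They are printed 5′ to 3′ on the gene's own strand to show what these promoters do and do not share, with matches in capitals. The motifs searched on both strands were TCACGTGA, the core of the CLEAR element bound by TFEB and its relatives, the E-box CACGTG, which lies inside that core, and CCAAT, whose reverse complement is ATTGG.
Atp6v1a, chr16:44139210-44139509, minus strand: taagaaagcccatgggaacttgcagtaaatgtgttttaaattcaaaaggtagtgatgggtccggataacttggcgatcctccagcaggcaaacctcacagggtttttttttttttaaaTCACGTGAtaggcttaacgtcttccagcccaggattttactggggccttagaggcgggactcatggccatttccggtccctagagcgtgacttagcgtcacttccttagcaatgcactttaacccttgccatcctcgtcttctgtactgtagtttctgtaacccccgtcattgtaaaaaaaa
Atp6v1d, chr12:78861589-78861888, minus strand: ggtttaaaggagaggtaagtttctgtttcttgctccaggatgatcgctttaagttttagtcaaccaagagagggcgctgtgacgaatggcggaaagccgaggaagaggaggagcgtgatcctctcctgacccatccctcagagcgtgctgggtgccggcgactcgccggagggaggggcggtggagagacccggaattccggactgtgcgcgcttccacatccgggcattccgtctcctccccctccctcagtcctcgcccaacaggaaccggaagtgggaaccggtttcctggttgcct
Atp6v1e1, chr6:120822649-120822948, minus strand: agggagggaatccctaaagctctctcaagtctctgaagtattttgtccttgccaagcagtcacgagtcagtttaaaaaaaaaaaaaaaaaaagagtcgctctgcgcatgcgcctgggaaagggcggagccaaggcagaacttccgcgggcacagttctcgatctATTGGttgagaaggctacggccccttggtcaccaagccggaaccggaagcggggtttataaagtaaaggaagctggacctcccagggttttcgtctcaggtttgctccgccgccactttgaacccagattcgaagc
Atp6v1f, chr6:29467533-29467832, plus strand: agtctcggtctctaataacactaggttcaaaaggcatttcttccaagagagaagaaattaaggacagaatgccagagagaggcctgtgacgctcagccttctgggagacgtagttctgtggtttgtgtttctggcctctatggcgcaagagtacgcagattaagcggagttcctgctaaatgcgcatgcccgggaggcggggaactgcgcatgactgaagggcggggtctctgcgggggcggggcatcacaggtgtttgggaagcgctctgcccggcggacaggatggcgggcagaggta

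Atp6v1a was the gene with a CLEAR core in its window, at bases -132 to -125 before the start site. That motif was found in 0.974% of the 32851 mouse windows of the same length, and CACGTG in 7.15%. Atp6v1e1 held a CCAAT box at bases -86 to -82, on the minus strand of the gene, and 37.4% of all windows held this motif. The Atp6v1d and Atp6v1f windows held none of the 3 motifs, and neither did those of Atp6v1b1 and Atp6v1c2, the genes near 0. A match describes letters in a window and shows no binding, and the lack of a match covers only these 300 bases. The RefSeq start of Atp6v1a lies 446 bases inside the gene as the table draws it, so sequence further upstream was not searched. The share of CpG against that expected from base content was 0.65 to 0.80 in the windows of the 4 genes that rose, 0.68 for Atp6v1c2 and 0.12 for Atp6v1b1.

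Among the catalytic ring genes, Atp6v1a rose and Atp6v1b2 did not pass. Gene positions here and below are those of the deposited table (GRCm38), with the exons of the principal coding transcript in GENCODE M21. Atp6v1a (ENSMUSG00000052459, chromosome 16, 44085402 to 44139705, minus strand, 15 exons) encodes the catalytic A subunit. It was at 149.6, 155 and 168 FPKM in knockdown replicates 1 to 3 and at 119, 125 and 123 FPKM in WT replicates 1 to 3. The knockdown libraries were all higher, and knockdown replicate 3 was the highest. The log2 fold change was 0.41 (SE 0.080, adjusted p = 0.0247, edgeR), which was the largest adjusted p among the 7 genes that passed. Atp6v1b2 (ENSMUSG00000006273, chromosome 8, 69088646 to 69113711, plus strand, 14 exons) encodes the B subunit of most cells, which binds nucleotide without the main catalytic role. It was at 117, 119 and 133 FPKM in the knockdown and at 109.5, 107 and 111 FPKM in WT. The groups did not overlap, but knockdown replicates 1 and 2 lay close above the WT libraries. Its log2 fold change was 0.22 (SE 0.085), with an unadjusted p of 0.0367 and an adjusted p of 0.138 in edgeR.

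The B subunit came from B2 transcripts almost entirely. Atp6v1b1 (ENSMUSG00000006269, chromosome 6, 83742990 to 83758855, plus strand), which encodes B1, had 8 estimated counts in knockdown replicate 2, 3 in WT replicate 3 and 0 in the other four libraries. As a share of B transcripts per length, B1 was 0.0165% in knockdown replicate 2, 0.00492% in WT replicate 3 and 0 elsewhere. The groups overlapped (exact permutation test, two-sided, p = 1.0, adjusted over the 2 isoform shares 1.0), and since 3 against 3 cannot give a p under 0.1, no outcome of this test could pass 0.05. Since the deposited counts are estimates that exceed the read pairs, no counting interval was made from them.

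The shaft genes Atp6v1d and Atp6v1f both rose. Atp6v1d (ENSMUSG00000021114, chromosome 12, 78840725 to 78861638, minus strand, 9 exons) encodes the D subunit, the main rod of the shaft. It was at 39.7, 42.6 and 44.1 FPKM in the knockdown and at 29.2, 27.5 and 27.0 FPKM in WT. Every knockdown library exceeded the highest WT library by more than the whole range within WT, and the log2 fold change was 0.64 (SE 0.079, adjusted p = 0.0113, edgeR). Atp6v1f (ENSMUSG00000004285, chromosome 6, 29467718 to 29470512, plus strand, 2 exons) encodes the small F subunit that sits on that rod. It was at 137, 130.0 and 136 FPKM in the knockdown and at 101, 103 and 104 FPKM in WT, with little spread within either group. The log2 fold change was 0.44 (SE 0.072, adjusted p = 0.0173).

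Both stalk genes rose, Atp6v1g1 by more than Atp6v1e1 in these values. Atp6v1g1 (ENSMUSG00000039105, chromosome 4, 63544772 to 63550750, plus strand, 3 exons, a single transcript in the table) encodes the G subunit in its widely expressed form. It was at 284, 307 and 313 FPKM in the knockdown and at 191, 197 and 197 FPKM in WT, the highest level of all V1 genes by deposited FPKM. Its log2 fold change was 0.68 (SE 0.069, adjusted p = 0.00963, edgeR), which ranked 46 by p among all genes tested. Atp6v1e1 (ENSMUSG00000019210, chromosome 6, 120794305 to 120822793, minus strand, 9 exons) encodes the E subunit that pairs with G in each stalk. It was at 62.0, 61.0 and 63.8 FPKM in the knockdown and at 49.7, 46.6 and 45.6 FPKM in WT. The knockdown libraries differed little from each other, WT replicate 1 was the highest of its group, and the log2 fold change was 0.45 (SE 0.079, adjusted p = 0.0204). Of the isoforms outside the 10 genes, Atp6v1e2 had 0.0931 to 0.349 FPKM and Atp6v1g2 0.204 to 0.701 FPKM over the 6 libraries, neither passed, and Atp6v1g3 was at 0 in all of them.

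The genes for the subunits that connect V1 to V0 rose too, and Atp6v1c1 had the largest fold change of the 8. Atp6v1c1 (ENSMUSG00000022295, chromosome 15, 38661933 to 38692446, plus strand, 13 exons) encodes the C subunit, which comes off when V1 leaves V0. It was at 61.0, 64.8 and 74.0 FPKM in the knockdown and at 39.3, 39.5 and 43.2 FPKM in WT. Knockdown replicate 3 was the highest, and without it the log2 fold change went from 0.76 (SE 0.097, adjusted p = 0.0114, edgeR) to 0.67. Atp6v1h (ENSMUSG00000033793, chromosome 1, 5070018 to 5162529, plus strand, 14 exons) encodes the H subunit, which is needed for a working pump and keeps free V1 from hydrolysing ATP. It was at 12.0, 13.4 and 12.9 FPKM in the knockdown and at 9.51, 9.53 and 10.2 FPKM in WT. The groups were clearly apart at this lower level, with a log2 fold change of 0.44 (SE 0.068, adjusted p = 0.0158).

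The C subunit also came from a single isoform gene. Atp6v1c2 (ENSMUSG00000020566, chromosome 12, 17284721 to 17324730, minus strand) had 6 and 10 estimated counts in knockdown replicates 1 and 3, 2 in WT replicate 2 and 0 in the rest. As a share of C transcripts per length, C2 was 0.0486%, 0 and 0.0689% in knockdown replicates 1 to 3 and 0, 0.0240% and 0 in WT. A library at 0 was thus present in both groups and their values overlapped (exact permutation test, two-sided, p = 0.4, adjusted over the 2 shares 0.8, again with no outcome able to pass). C1 therefore made up at least 99.9% of C transcripts in each library, and B2 at least 99.98% of B transcripts. Atp6v1c2 overlaps Pdia6 by 50 bases on the opposite strand. Pdia6 was at 38.7 to 43.8 FPKM, and whether counting used strand is not stated, so the few counts of Atp6v1c2 are uncertain. The other overlapping genes are weak: Slc18a1 over Atp6v1b2, Slc25a18 and the miRNA gene Gm25193 over Atp6v1e1, and Rgs20 over Atp6v1h were at 0.574 FPKM or less in each library.

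The size of the difference was also compared between V1 genes, with no test able to pass. To compare subunits without scaling between libraries, each gene was divided by Atp6v1a within its own library. On the log2 scale, the knockdown minus WT difference of this ratio was 0.35 for Atp6v1c1, 0.26 for Atp6v1g1 and 0.23 for Atp6v1d, so these 3 genes were 17.3% to 27.1% higher relative to Atp6v1a. For Atp6v1b2 it was -0.19, so the ratio of B2 to A transcripts was 12.6% lower in the knockdown. In each of these 4 ratios the groups did not overlap. How often this holds for ratios of other genes to Atp6v1a was not computed. For FPKM itself, the groups did not overlap in either direction in 37.6% of all genes tested. The log2 ratio of Atp6v1b2 to Atp6v1a was -0.36, -0.38 and -0.34 in knockdown replicates 1 to 3 and -0.12, -0.22 and -0.15 in WT. For Atp6v1e1, Atp6v1f and Atp6v1h the groups overlapped, with differences of 0.03, 0.02 and 0.03. The exact permutation test (two-sided) gave p = 0.1 for each of the 4 ratios whose groups did not overlap, the smallest value that 3 against 3 can give. The p was 0.6 to 0.9 for the other three, and Benjamini-Hochberg adjustment over the 7 ratios gave 0.175 for the 4 and 0.7 to 0.9 for the 3. No ratio could pass 0.05 in this design. All 7 ratios share Atp6v1a, and relative to Atp6v1b2 all 7 other genes were higher in the knockdown, by 0.19 to 0.54 on the log2 scale.

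**Figure D2:**
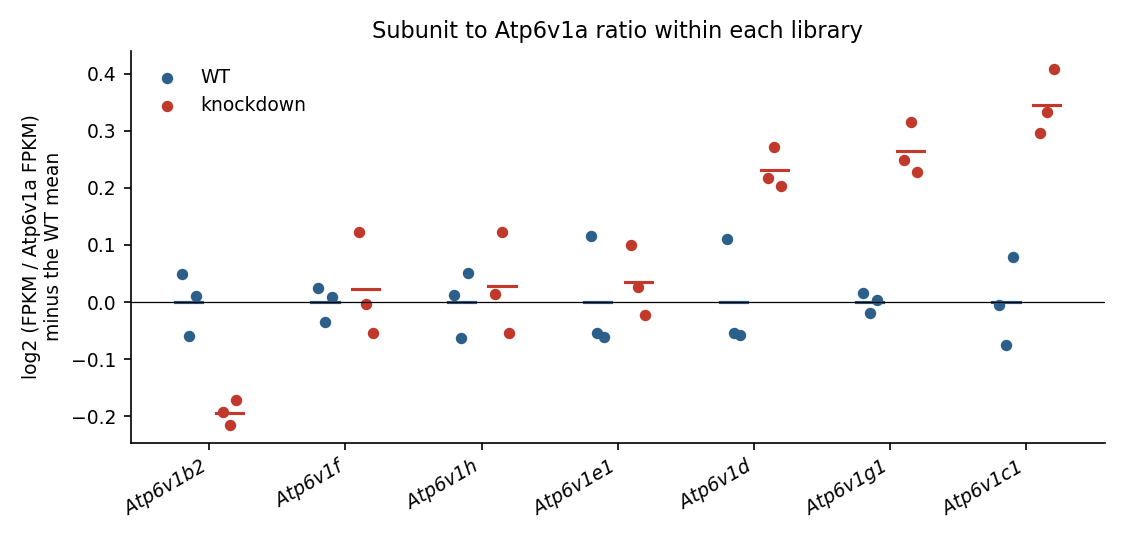
Log2 ratio of each V1 gene's FPKM to that of Atp6v1a in the same library, shown minus the WT mean of that gene; points are libraries (WT blue, knockdown red) and short lines are group means. Atp6v1d, Atp6v1g1 and Atp6v1c1 lie above WT, Atp6v1b2 lies below it at -0.19, and the groups overlap in Atp6v1f, Atp6v1h and Atp6v1e1.

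The order of levels among the V1 genes depends on the length that counts are divided by. In WT the deposited FPKM ran from Atp6v1g1 (195 ± 3.24, mean ± SD, n = 3) over Atp6v1a (122 ± 3.35), Atp6v1b2 (109 ± 1.80), Atp6v1f (103 ± 1.36), Atp6v1e1 (47.3 ± 2.13), Atp6v1c1 (40.6 ± 2.20) and Atp6v1d (27.9 ± 1.16) to Atp6v1h (9.73 ± 0.363). No neighbours in this order overlapped. In the knockdown Atp6v1f (134 ± 3.79) stood before Atp6v1b2 (123 ± 8.72) and Atp6v1c1 (66.6 ± 6.69) before Atp6v1e1 (62.3 ± 1.44), and the libraries of both pairs overlapped. The deposited FPKM divides by the combined length of all exons of all transcripts of a gene. This length matched GENCODE M21, up to a constant and within 1%, in 98.7% of 8327 genes with several transcripts. For Atp6v1h it is 9746 bases, against 2049 bases in the principal coding transcript, whereas for Atp6v1g1 both are 1135 bases. Divided by the principal transcript instead, a choice made after seeing the data, the WT levels were 205 ± 3.38 for Atp6v1b2, 195 ± 3.24 for Atp6v1g1, 175 ± 4.78 for Atp6v1a, 155 ± 2.06 for Atp6v1f and 148 ± 6.69 for Atp6v1e1. They were 109.9 ± 5.96 for Atp6v1c1, 46.3 ± 1.73 for Atp6v1h and 35.0 ± 1.45 for Atp6v1d. By that length Atp6v1b2 led and Atp6v1d was the lowest, and Atp6v1f and Atp6v1e1 overlapped. The length cancels in any comparison of knockdown with WT for the same gene.

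Summed over the 8 tested genes, V1 transcripts were at 862, 893 and 945 FPKM in knockdown replicates 1 to 3 and at 649, 655 and 661 FPKM in WT. This sum is led by Atp6v1g1 and Atp6v1a, and the groups did not overlap. Within the knockdown, replicate 3 was the highest and replicate 1 the lowest in 6 of the 8 genes each. The coefficient of variation within a group ran from 1.33% to 10.04%. The fold changes above use TMM scaling, and on log2(FPKM + 1) they were smaller, at 0.17 for Atp6v1b2, 0.36 for Atp6v1a and 0.70 for Atp6v1c1 in limma, with the same 7 genes past the threshold at a background of 6.31%.

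The V1 genes were set beside the rest of the pump and its assembly factors, from lists chosen by function. Both the V1 genes and these lists were chosen with earlier results of these data known. Of 26 such genes 23 were tested, 4 rose and 1 fell. Of all genes tested, 4.87% were called higher and 11.3% passed in either direction. In V0, 2 of 9 tested genes rose, against 7 of 8 in V1, and the median log2 fold change was 0.07, against 0.44. The difference between the sectors was not tested. Atp6v0d1, which encodes the d subunit that receives the shaft on the membrane side, was at 134 ± 1.88 FPKM in WT and 176 ± 10.01 FPKM in the knockdown and rose by 0.44 on the log2 scale (SE 0.075, edgeR adjusted p = 0.0189). Its isoform Atp6v0d2, known from macrophages and osteoclasts, rose from 15.5 ± 2.06 to 70.7 ± 34.7 FPKM, with 54.8, 46.9 and 110.5 FPKM in knockdown replicates 1 to 3 (2.24 on the log2 scale, SE 0.34, adjusted p = 0.0152). The other tested V0 genes did not pass. Among them Tcirg1, the a3 subunit gene, was at 129 to 143 FPKM in the knockdown and 129 to 134 FPKM in WT, and Atp6v0c, the proton-carrying ring gene, at 173 to 194 and 149.6 to 216 FPKM. A processed pseudogene named for Atp6v0c is in the table with counts, so the Atp6v0c value is uncertain.

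Of 8 genes that bring V1 back to V0 or carry the V1-binding TLDc domain, 7 were tested, 1 rose (Wdr7), 1 fell (Ncoa7) and 5 did not pass, at a background of 11.3% of all genes passing in either direction. Wdr7, which with Dmxl1 or Dmxl2 forms the rabconnectin complex that brings V1 back to V0, was at 20.9, 23.2 and 23.7 FPKM in the knockdown and 15.6, 17.5 and 15.4 FPKM in WT and rose by 0.53 on the log2 scale (SE 0.081, edgeR adjusted p = 0.0152). Its partner Dmxl2 was at 9.50 to 12.01 FPKM in the knockdown and 5.25 to 8.32 FPKM in WT and missed the threshold (0.76, adjusted p = 0.0533), and Dmxl1, at 0.15 on the log2 scale, did not pass (adjusted p = 0.338). Meak7 (0.31), Oxr1 (0.08) and Rogdi (-0.30) did not pass either, with adjusted p of 0.145, 0.628 and 0.267. Ncoa7, a TLDc-domain protein that binds V1, fell from 2.87 ± 0.178 to 2.05 ± 0.137 FPKM (-0.44, SE 0.097, adjusted p = 0.0348). Tmem199, an assembly factor in the endoplasmic reticulum, rose from 12.2 ± 0.301 to 15.7 ± 0.245 FPKM (0.41, SE 0.084, adjusted p = 0.0282). The accessory genes Atp6ap1 and Atp6ap2 did not pass, with log2 fold changes of 0.12 and 0.22. Of these 26 other v-ATPase genes, edgeR without knockdown replicate 3 called 3 higher (Atp6v0d2, Atp6v0d1 and Wdr7) and 1 lower (Ccdc115, an assembly factor in the endoplasmic reticulum). Atp6v0d2 was then at 1.75 on the log2 scale. Ccdc115 was at 7.69, 6.57 and 18.4 FPKM in knockdown replicates 1 to 3 and at 19.5 to 19.9 FPKM in WT, so the library left out was near WT. Without WT replicate 2 edgeR called 0 of the 23 tested. At an unadjusted p under 0.05 were 6 of the 23, beside 4065 of 18979 genes in all. Without WT replicate 3 edgeR called 1 (Atp6v0d2, background 1.39%), and without knockdown replicate 1 it called 2 (Atp6v0d2 and Wdr7, background 1.12%). Without WT replicate 1 it called 5 higher, Dmxl2 among them (background 4.96%), and without knockdown replicate 2 it called 3 higher (background 2.71%). The background without knockdown replicate 3 was 1.98% of genes called higher and 4.15% passing in either direction. The call of Ncoa7 was lost with any library left out, and that of Tmem199 with any but WT replicate 1.

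**Figure D3:**
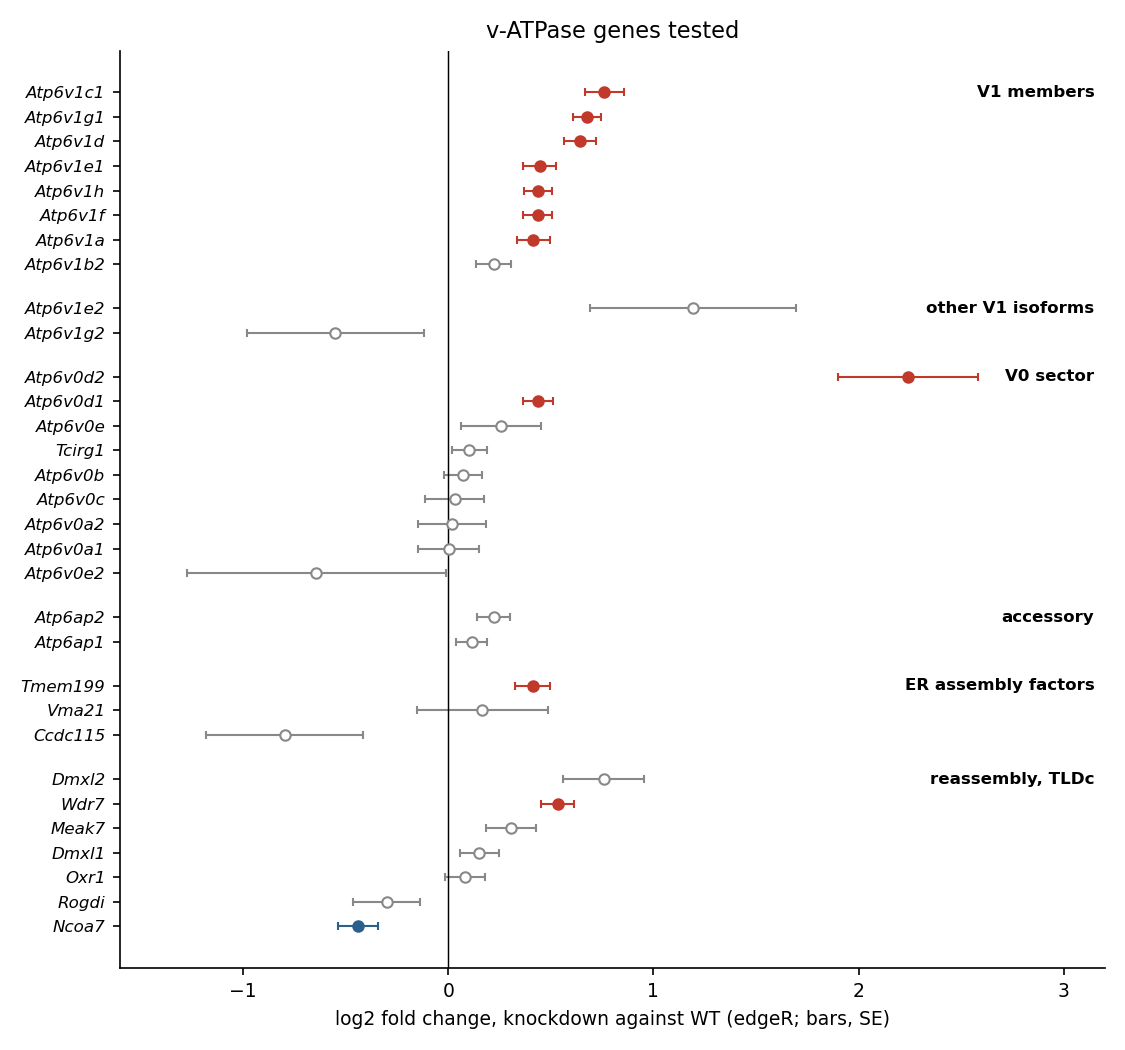
Log2 fold change of each tested v-ATPase gene in edgeR, knockdown against WT, grouped by part of the pump; bars are SE, filled points passed an adjusted p of 0.05 (red higher, blue lower) and open points did not. Of the V1 genes 7 of 8 are filled, and in V0 Atp6v0d2 and Atp6v0d1 are.

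Marker lists of cells that a bone marrow culture can hold were read beside these values. Osteoclasts carry much v-ATPase. Of 8 osteoclast markers 5 were tested and 0 passed (edgeR), and their summed level was 62.5 to 110.3 FPKM in the knockdown and 79.5 to 97.3 FPKM in WT, most of it from Ctsk. Besides Ctsk, the transcription factor gene Nfatc1 was at 8.11 to 12.6 FPKM, the acid phosphatase gene Acp5 at 4.05 to 7.71 FPKM and the protease gene Mmp9 at 0.596 to 1.72 FPKM over the 6 libraries. The fusion gene Dcstamp was at 0.0785 to 0.156 FPKM in the knockdown and 0.204 to 1.29 FPKM in WT (-2.30 on the log2 scale, adjusted p = 0.0767, edgeR). Oscar was at 0 to 0.306 FPKM, the fusion gene Ocstamp at 0 to 0.0522 FPKM, and Calcr, the calcitonin receptor gene, at 0 in every library. Over all genes tested, 4.87% were called higher and 11.3% passed in either direction. The summed mast cell and basophil list was at 3.36 to 8.74 FPKM in the knockdown and 1.35 to 2.93 FPKM in WT, with 1 of 6 tested genes higher. The erythroid list was at 0.546 to 6.03 and 0.314 to 0.607 FPKM, with 1 of 2 tested genes higher. Neutrophil markers summed to 78.6 to 125 and 101 to 153 FPKM, with 1 gene higher and 1 lower of 8 tested. B cell markers summed to 1.10 to 5.46 and 5.69 to 8.19 FPKM with 0 of 5 past the threshold. Fibroblast markers summed to 0.635 to 4.50 and 1.66 to 5.94 FPKM with 0 of 5 past it, and T cell markers to at most 0.231 FPKM with none tested. Without knockdown replicate 3, 2 of the macrophage markers (Fcgr1 and Cd14) passed as lower and 1 (Cd68) as higher. In that fit 2 genes of the mast cell and basophil list passed as higher, and the numbers passing in the other lists were as given. Of all genes in that fit, 1.98% were called higher and 4.15% passed in either direction. The part of these lists in the V1 values was not tested.

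Across the 6 libraries each V1 gene followed the mean of the other seven closely, with Pearson r from 0.89 for Atp6v1b2 to 0.99 for Atp6v1g1, as a description over 6 points that fall into 2 groups. By a fixed rule, the 5 other genes of at least 5 FPKM most like the V1 mean were Nub1 (r = 0.997, n = 6), Hspe1 (0.996), Pebp1 (0.996), Cyfip2 (0.995) and Calr (0.995). Nub1 encodes a protein that lowers NEDD8, and it was at 36.4, 38.1 and 39.0 FPKM in the knockdown and 30.4, 30.3 and 30.01 FPKM in WT. Hspe1 encodes the mitochondrial co-chaperonin and Calr the calcium-binding chaperone calreticulin. A high r was not particular to these 5 genes, since 518 of 6602 genes compared had r over 0.9 with the V1 mean.

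**Figure D4:**
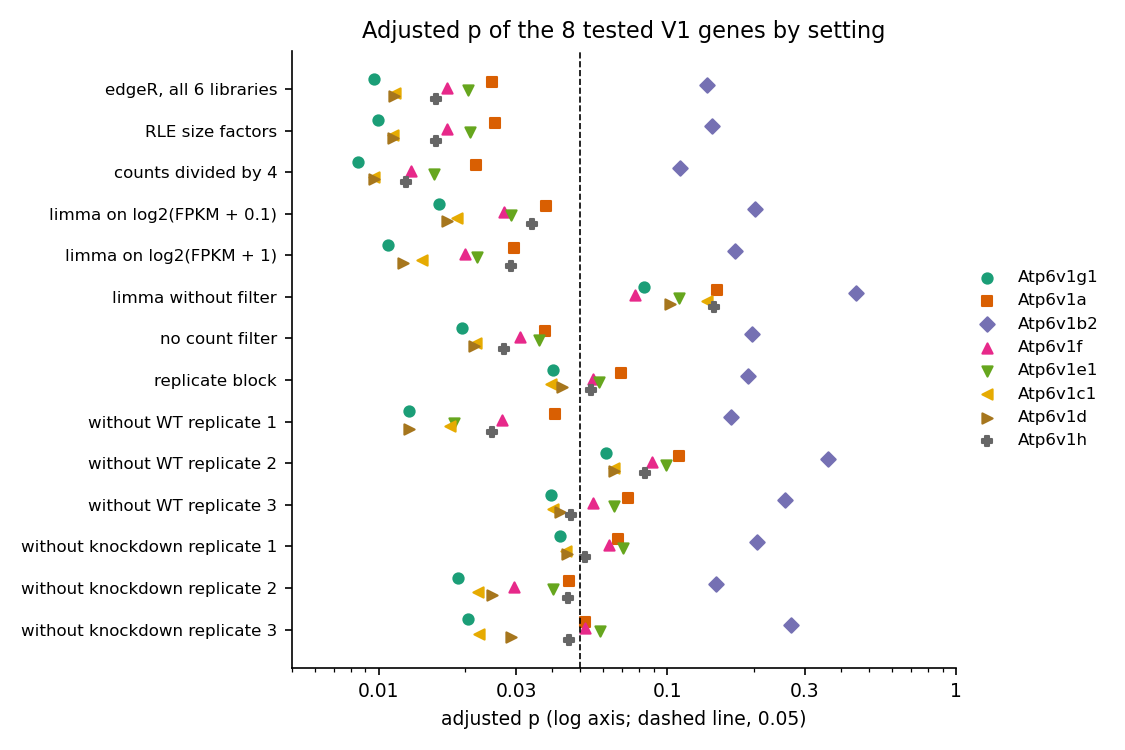
Adjusted p of the 8 tested V1 genes (log axis) in edgeR with all 6 libraries and in 13 other settings; the dashed line is 0.05, and both DESeq2 fits and the limma fit without WT replicate 2 are not drawn. Atp6v1b2 lies to the right of the line in every setting shown, and without WT replicate 2 or in limma without a filter all 8 genes do.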

How the data were processed

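The values come from 3 Lamtor5 knockdown and 3 WT macrophage libraries, grouped by the genotype label. Per the labels' protocols, total RNA went through a Qiagen kit and a SMARTER mRNA library kit. Per the submitters' processing notes, GRCm38 (mm10) was the genome. Per the file headers, cutadapt 1.9 trimmed adapters (overlap 5, minimum length 100). For the aligner, counter, annotation and strand setting: not given in the sources used here.

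Whole-number estimated counts and FPKM for 55401 genes were deposited by the authors. The deposited counts are not a tally of reads: they sum to 2.95 to 3.01 per read pair kept, and low values pile up on 4 (15.9% of values up to 30 in single-transcript genes) against 5 (3.23%). The authors' FPKM is 0.0001 where the count is 0, and was read as 0 in levels and shares.

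The test was edgeR 4.0.16 in R 4.3.3 (filterByExpr with a minimum count of 10, TMM, quasi-likelihood, group only, Benjamini-Hochberg over 18164 genes). SE is the absolute log2 fold change over the root of the F statistic. Isoform shares and within-library ratios used deposited FPKM and exact permutation tests (scipy 1.17.1). Promoters are RefSeq windows. Other settings tried were no count filter, DESeq2 1.42.0, RLE size factors, counts divided by 4, limma 3.58.1 on log2(FPKM + 1) or log2(FPKM + 0.1) with a mean of at least 1 FPKM or no filter, a replicate block, and each library left out. The fitting functions were tested on simulated data. No 2 libraries of a group agreed within sampling noise.

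Named genes were the 10 V1 genes, Lamtor5, other v-ATPase genes past the threshold, and the 5 most like the V1 mean by Pearson correlation of log2 FPKM. Lyz2, the v-ATPase genes that did not pass, overlapping genes and single markers were named after their values were seen. The V1 genes and lists were chosen with earlier results of these data known.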

Additional observations from a re-analysis of the deposited data

How the results depend on the processing

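All 8 tested V1 genes kept an upward direction in the 16 alternatives, which was nearly fixed in advance since the groups did not overlap. The number called (7) was 3 with the replicate block, where 1.67% of 18164 genes were called higher. In limma without a filter the number was 0, where 0.0325% of 55401 genes were called higher. In that fit 8 were at an unadjusted p under 0.05, as were 5521 of the 55401 genes. With a library left out the number was 0 to 7, and limma without WT replicate 2 called 0. These settings have fewer samples, more genes or more model terms, and otherwise the cause was not tested. Over all genes, 2058 passed, against 4147 with DESeq2, 1205 with no count filter, 31 in limma without a filter, 728 with the replicate block, 0 to 2334 with a library left out and 0 in limma without WT replicate 2 (2969 at an unadjusted p under 0.05). Whether equal replicate numbers mark paired libraries could not be settled. Same-numbered libraries correlated at 0.045, 0.035 and -0.011 in their deviations from the group means. Knockdown replicates 1 and 2 correlated best with the WT library of the same number, and knockdown replicate 3 with WT replicate 2. Correlations this small cannot decide the question. With the block, Atp6v1c1, Atp6v1d and Atp6v1g1 passed.

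The knockdown minus WT difference of the B1 share was 0.00385 percentage points, and -0.00164 to 0.00659 with a library left out, reversed without knockdown replicate 2, where the B1 counts of the knockdown lay. That of the C2 share was 0.0163 to 0.0508. The log2 ratio to Atp6v1a stayed between -0.22 and -0.17 for Atp6v1b2, 0.31 and 0.39 for Atp6v1c1, 0.20 and 0.29 for Atp6v1d, and 0.24 and 0.28 for Atp6v1g1. For the 3 genes near 0 it ranged from 0.0021 to 0.093 (Atp6v1e1), from -0.028 to 0.060 (Atp6v1f, reversed without knockdown replicate 1) and from -0.020 to 0.068 (Atp6v1h, reversed without knockdown replicate 2 and, at -0.0041, without WT replicate 2). Depth limits the B1 and C2 shares, which rest on at most 10 estimated counts in a library.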
